A study of Mus musculus with 6 samples.

Results

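Brain blood vessels were examined through 10 genes of endothelial cells and pericytes, given by name as known vascular markers. The genes were Pecam1, Cdh5, Kdr, Flt1, Tek, Tie1, Cldn5, Slc2a1, Mfsd2a and Pdgfrb. In the count tables, 7 of the 10 had a RefSeq transcript ID, 1 each, of 23485 IDs in all. Pecam1, Tek and Pdgfrb matched no ID among those analysed here, so no value is given for these 3 genes and the pericyte was represented only by the wider list of mural cell genes. The libraries came from whole brains taken at E15.5, counted in days of gestation, from mouse embryos of the C57BL/6 strain, all wild-type. There were 3 female and 3 male samples, each a pool of RNA from several embryos sexed by their gonads. No treatment or transgene was used, and every pool carried the same genotype. The pools are separate samples by their labels, but their litters are not given, so p-values measure the spread between pools.

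Endothelial cells line the vessels that grow into the neural tube from a surrounding plexus under the control of vascular endothelial growth factor (VEGF). VEGF receptors drive sprouting, the TIE receptors and angiopoietins stabilise new vessels, and pericytes are recruited through platelet-derived growth factor signalling. In the brain, Wnt signals from neural cells induce the blood-brain barrier, for which endothelial cells make tight junctions, take up glucose through a dedicated carrier and suppress transcytosis. The members were therefore read in 2 groups. One held the general endothelial genes Cdh5, Kdr, Flt1 and Tie1, and the other the barrier genes Cldn5, Slc2a1 and Mfsd2a.

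Totals ranged from 4908565 to 10294443 counts per sample, at which a count of 0 allows up to 0.291 to 0.611 CPM (counts-per-million of the library). Xist had 6153 or more counts in each female sample and 7 or fewer in each male sample, and Ddx3y had 1 or fewer in females and 1308 or more in males, so the labelled sexes held. Transcripts of other tissues were abundant in these libraries. Markers of meningeal and perivascular fibroblasts summed to 18003 to 26361 CPM and those of skeletal muscle to 5230 to 7339 CPM. Endothelial RNA of attached tissue cannot be told apart from that of brain vessels here. In bulk RNA, fewer endothelial cells and less RNA per cell cannot be told apart either.

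The upstream sequences of genes from both groups are shown first, because the fold changes of the groups, Tie1 apart, had opposite signs. Kdr and Flt1 represent the receptors and Cldn5 and Slc2a1 the barrier. Each line gives the 250 bases before the annotated start, 5′ to 3′ on the strand of the gene, from RefSeq on build GRCm38.p6. They lie at chr5:75978456-75978705 (minus strand) for Kdr, chr5:147726012-147726261 (minus) for Flt1, chr16:18776597-18776846 (plus) for Cldn5 and chr4:119108495-119108744 (plus) for Slc2a1. Capitals mark GGAA or its reverse complement TTCC, the core letters that ETS factors, regulators of many endothelial genes, bind.
Kdr: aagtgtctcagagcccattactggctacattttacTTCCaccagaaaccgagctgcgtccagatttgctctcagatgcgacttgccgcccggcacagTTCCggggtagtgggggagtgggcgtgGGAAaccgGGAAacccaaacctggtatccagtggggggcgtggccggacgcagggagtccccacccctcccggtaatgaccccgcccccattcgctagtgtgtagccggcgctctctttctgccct
Flt1: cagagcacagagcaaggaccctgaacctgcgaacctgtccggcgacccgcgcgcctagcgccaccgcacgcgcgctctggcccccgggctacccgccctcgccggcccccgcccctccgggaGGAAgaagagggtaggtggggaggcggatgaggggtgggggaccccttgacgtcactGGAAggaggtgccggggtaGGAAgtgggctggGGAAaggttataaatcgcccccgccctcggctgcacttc
Cldn5: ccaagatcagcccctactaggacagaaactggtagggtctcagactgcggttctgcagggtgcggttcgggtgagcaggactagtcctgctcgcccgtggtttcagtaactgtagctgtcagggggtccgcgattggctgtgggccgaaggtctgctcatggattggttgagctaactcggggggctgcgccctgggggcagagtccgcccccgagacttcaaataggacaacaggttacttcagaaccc
Slc2a1: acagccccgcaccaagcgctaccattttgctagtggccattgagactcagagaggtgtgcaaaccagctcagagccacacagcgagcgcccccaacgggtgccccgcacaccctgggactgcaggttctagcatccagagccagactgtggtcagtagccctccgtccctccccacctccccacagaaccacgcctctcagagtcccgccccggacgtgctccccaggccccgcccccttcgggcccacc

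Kdr and Flt1 each had 4 matches to GGAA on either strand, and Cldn5 and Slc2a1 had 0. Of the other members with an entry in the table, Tie1 had 7 matches and Mfsd2a 2. Of all 32851 upstream windows of this length, 93.4% held at least 1 match, with a mean of 2.91. The GC box letters GGGCGG or their complement were found 2 times upstream of Kdr, 3 times upstream of Flt1, 1 time upstream of Cldn5, 2 times upstream of Slc2a1 and 0 times upstream of Tie1 and Mfsd2a, against 32.7% of windows with at least 1. TATAAA was found upstream of Flt1 alone among the 6 members, against 12.4% of windows. ACGTG, part of the hypoxia response element, occurred 1 time upstream of Slc2a1 and 2 times upstream of Mfsd2a, against 16.6% of windows. CTTTG, a core of TCF/LEF sites, occurred 2 times upstream of Mfsd2a and in none of the other 5 members, against 48.6% of windows, and ACAAT, a SOX core, in none of the 6, against 27.7%. Both strands were searched, and matches of different motifs could overlap. These are matches of letters in 1 window and not binding sites.

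Levels can be compared between genes only per length, here as CPM per kilobase (kb) of the longest annotated transcript. Slc2a1, the glucose transporter GLUT1, was the highest, with a median of 84.4 CPM per kb over the 6 samples (64.4 to 113.1). Cdh5, which encodes VE-cadherin of the endothelial adherens junction, had 71.4 (53.8 to 79.1), and its range overlapped that of Slc2a1. Cldn5, which encodes the tight junction protein claudin-5, had 41.3 (29.7 to 52.3) and overlapped with Kdr, the main VEGF receptor (VEGFR2), at 34.1 (30 to 38.3). Tie1, an orphan receptor that modulates angiopoietin signalling, had 18.9 (14.9 to 20.6). Mfsd2a, a lipid transporter that restrains transcytosis in brain endothelium, had 15.3 (10.8 to 17.1) and overlapped with Tie1. Flt1, the decoy-like VEGF receptor VEGFR1, was the lowest at 9.41 (7.76 to 10.4), with no overlap with Mfsd2a. Among the 13374 IDs tested, the members lay between the 59.3 and 94.5 percentiles of mean CPM, so all 7 were measured well above the low-count limit.

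The central question was whether the vascular genes differ between male and female brains. The log2 fold changes (male minus female) of the 3 barrier genes were 0.35 to 0.43 and those of 3 of the 4 general endothelial genes -0.26 to -0.17, but none of the 7 members passed the test. By edgeR, 0 of 7 were called at an adjusted p under 0.05 (adjusted p 0.379 to 0.641), against 0.0299% of all tested IDs. At an unadjusted p under 0.05, 2 of 7 were higher in males and 0 lower, against 6.68% and 4.82% of all tested IDs. Without female sample 2 that count was 0 (5.61% of all IDs in that fit, in either direction), and it was 1 without female sample 1 (5.73%) or male sample 2 (8.94%). Over all tested IDs the balance depended on the scaling, with 893 higher and 644 lower in males with TMM factors and 673 and 937 with upper-quartile factors. DESeq2 also called 0 of 7 (adjusted p 0.211 to 0.606), against 0.8% of all tested IDs. It gave 3 of 7 an unadjusted p under 0.05 in either direction, against 10.7% of all tested IDs. In CPM, 1 member was higher in every male sample than in any female sample and 3 were lower, against 8.7% and 8.35% of all tested IDs.

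Among the general endothelial genes, Cdh5 (NM_009868; NCBIM37 chromosome 8, 106625525 to 106668402, plus strand) had 315.5, 297.0 and 290.1 CPM in female samples 1, 2 and 3 and 278.7, 214.3 and 259.3 CPM in male samples 1, 2 and 3. All male samples lay below all female samples, with male sample 2 the lowest. Its log2 fold change (male minus female) was -0.26 (standard error 0.13, 95% interval -0.53 to 0.01; edgeR adjusted p 0.442). Without male sample 2 it was -0.16.

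The VEGF receptors showed the same order. Kdr (NM_010612; chromosome 5, 76328852 to 76374483, minus strand) had 227.2, 216.7 and 204.1 CPM in females and 196.8, 178.0 and 200.1 CPM in males. The sexes did not overlap, but the gap between male sample 3 and female sample 3 was smaller than the range within either sex. The log2 fold change of Kdr was -0.17 (standard error 0.12, 95% interval -0.42 to 0.08; edgeR adjusted p 0.572). Flt1 (NM_010228; chromosome 5, 148373180 to 148537587, minus strand) had 71.9, 66.1 and 65.8 CPM in females and 53.5, 56.7 and 64.0 CPM in males. Again the sexes did not overlap, and male sample 3 came close to the females. Its log2 fold change was -0.23 (standard error 0.14, 95% interval -0.52 to 0.07; edgeR adjusted p 0.530).

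Tie1 (NM_011587; chromosome 4, 118143796 to 118162666, minus strand) did not follow the other receptors. It had 68.7, 61.1 and 80.7 CPM in females and 84.2, 79.3 and 75.1 CPM in males, with female sample 3 above male samples 2 and 3. Its log2 fold change was 0.18 (standard error 0.14, 95% interval -0.13 to 0.48; edgeR adjusted p 0.641), and it was 0.08 without female sample 2 and 0.30 without female sample 3.

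Of the barrier genes, Cldn5 (NM_013805; chromosome 16, 18776940 to 18778353, plus strand) had 45.2, 41.9 and 59.8 CPM in females and 68.0, 74.0 and 57.0 CPM in males. Female sample 3 lay above male sample 3, and otherwise the males were higher. The log2 fold change was 0.43 (standard error 0.17), or 1.35-fold (95% interval 1.05 to 1.73), with an edgeR adjusted p of 0.379. Slc2a1 (NM_011400; chromosome 4, 118781316 to 118809935, plus strand) had 224.1, 167.8 and 183.0 CPM in females and 294.9, 216.0 and 224.1 CPM in males. Male sample 1 stood above the rest. Female sample 1 lay above male sample 2 and at the level of male sample 3 to the printed digit, and the other 2 female samples lay below all males. The log2 fold change was 0.35 (standard error 0.15), or 1.28-fold (95% interval 1.02 to 1.61), with an edgeR adjusted p of 0.400. Without male sample 1 it was 0.20. The 3′ part of Slc2a1 overlaps an annotated transcript on the opposite strand, and whether strand was used in counting is not stated, so its counts are uncertain in that respect. Such overlaps of the other members are not given here. GLUT1 is also made outside vessels, by erythroid and choroid plexus cells among others.

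Mfsd2a (NM_029662; chromosome 4, 122624093 to 122638431, minus strand) had 24.3, 23.2 and 32.7 CPM in females and 36.7, 33.0 and 33.4 CPM in males. The sexes did not overlap, but female sample 3 lay close to male sample 2. Its log2 fold change was 0.36 (standard error 0.18), or 1.28-fold (95% interval 0.98 to 1.66), with an edgeR adjusted p of 0.451. Mfsd2a also had the fewest counts, 116 in female sample 2, where counting alone gives an error of 9.28%. Counting errors at the lowest count of the other members were 2.67% to 6.9%.

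**Figure D1:**
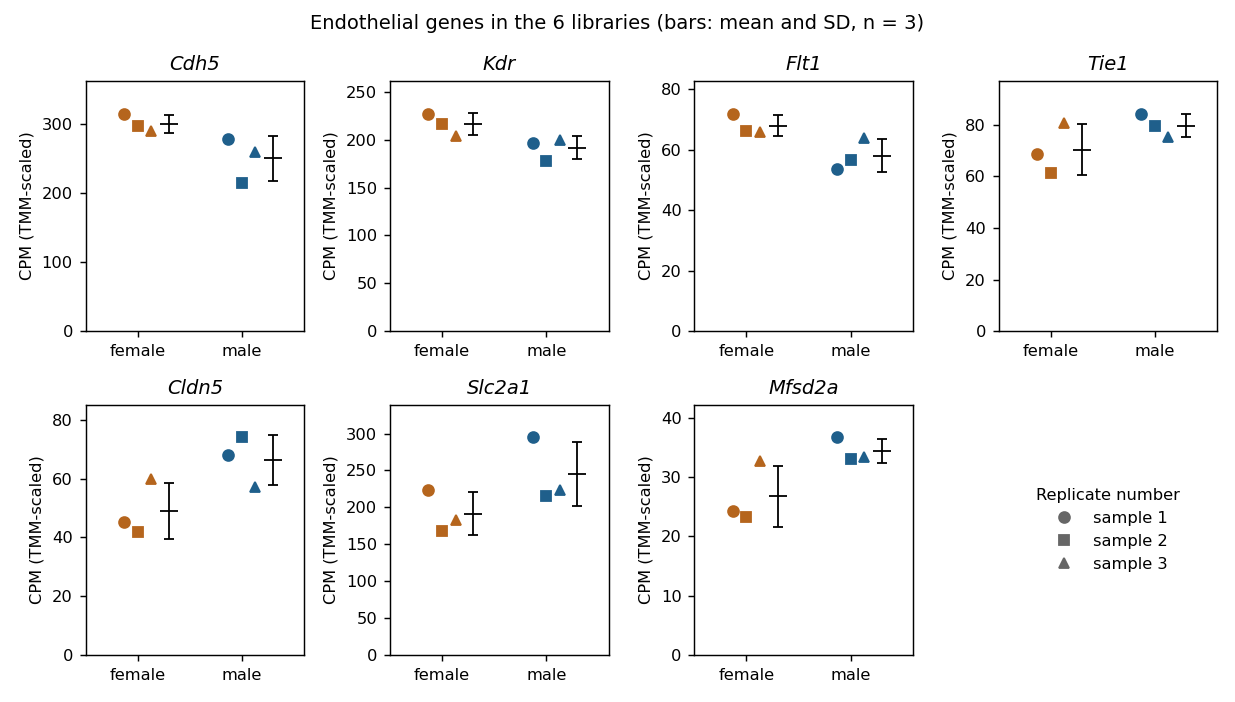
TMM-scaled CPM of the 7 measured genes in each of 3 female and 3 male samples, with the mean and SD (n = 3) of each sex beside the points. Cdh5, Kdr, Flt1 and Mfsd2a do not overlap between the sexes, whereas Cldn5, Slc2a1 and Tie1 do.

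**Figure D2:**
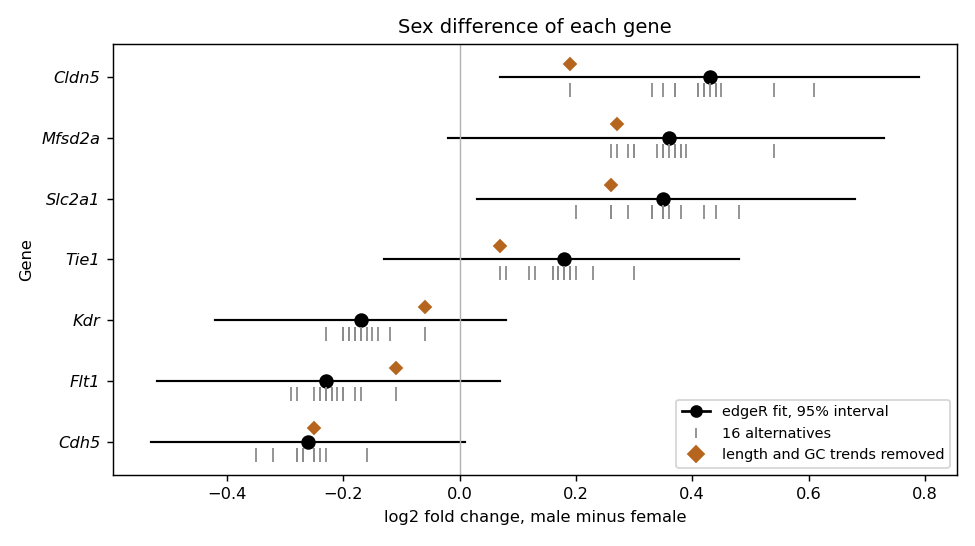
Log2 fold change (male minus female) of each gene with its 95% interval from the edgeR fit, with the values of 16 alternatives as ticks and the fit with length and GC trends removed as diamonds. No gene changes sign in any alternative, and the intervals of Cldn5 and Slc2a1 alone exclude 0 before adjustment over all tested IDs.

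To compare the vascular genes as a whole, CPM was summed over the 7 members. The sum was 976.9, 873.9 and 916.2 CPM in females and 1013.0, 851.4 and 913.1 CPM in males. The sexes overlapped throughout, and the means were 922.3 ± 51.8 for females and 925.8 ± 81.5 for males (SD, n = 3), a log2 difference of 0.00. Cdh5, Slc2a1 and Kdr had the highest CPM in this sum (means of 275.8, 218.3 and 203.8). Slc2a1 had a fold change above 0 and Cdh5 and Kdr below 0, so their differences offset each other in the sum. With the mean of log2 CPM instead, the difference was 0.10 and the sexes overlapped. Of the 6 wider lists, the sums of 5 overlapped between the sexes, and that of the hypoxia-responsive genes did not (201.7 to 248.0 CPM in females and 265.3 to 322.5 CPM in males). Without Pgk1 and Ddit4, an alternative added after the values were seen, the latter overlapped too (150.0 to 169.0 and 160.2 to 190.8 CPM). The 14 tested pan-endothelial genes outside the members summed to 561.3 to 598.4 CPM in females and 548.9 to 611.7 CPM in males, and 13 mural cell genes to 1547 to 1728 CPM in females and 1546 to 1761 CPM in males.

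To set the barrier genes against the general endothelial genes, the summed CPM of Cldn5, Slc2a1 and Mfsd2a was divided by that of Cdh5, Kdr, Flt1 and Tie1. The ratio was 0.430, 0.363 and 0.430 in female samples and 0.652, 0.611 and 0.525 in male samples. All males lay above all females. The means were 0.408 ± 0.0384 (SD, n = 3) and 0.596 ± 0.0645 (SD, n = 3), a difference of 0.55 on the log2 scale. With Slc2a1 left out of the sum, an alternative added after the values were seen, the difference was 0.60 and the sexes still did not overlap. The ratio is a score over chosen genes and is given without a test. The wider lists did not show the same separation. The 11 tested further blood-brain barrier genes summed to 851.3 to 1004.4 CPM in females and 891.5 to 1052.3 CPM in males. Their median log2 fold change was 0.04, and that of the further pan-endothelial genes 0.05.

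**Figure D3:**
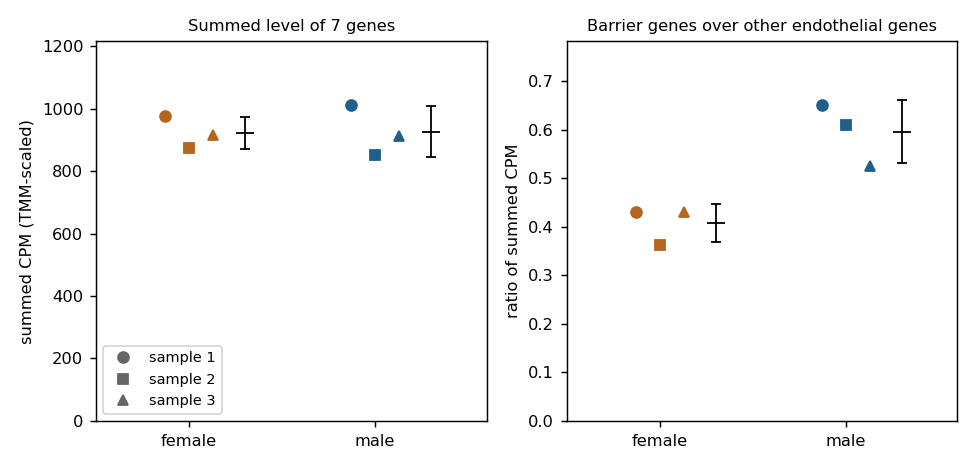
Summed CPM of the 7 genes (left) and the ratio of the summed CPM of 3 barrier genes to that of 4 general endothelial genes (right) in each sample, with the mean and SD (n = 3) of each sex. The sums overlap, and the ratios are 0.363 to 0.430 in females and 0.525 to 0.652 in males.

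The direction of the fold change also followed base composition among the members. Kdr, Flt1 and Cdh5, the 3 members with a fold change below 0, had transcript GC contents of 49.4%, 50.5% and 52.2%. Mfsd2a, Slc2a1, Tie1 and Cldn5, the 4 above 0, had 54.2%, 55.2%, 58.2% and 60.5%. The 3 barrier transcripts were the shortest, at 1.41 kb for Cldn5, 2.15 kb for Mfsd2a and 2.61 kb for Slc2a1, against 3.99 to 6.89 kb for the others. Across 12750 tested IDs with a length, which are not independent replicates, Spearman's rho of the log2 fold change was 0.28 with GC content and -0.25 with length. With length and GC trends removed per sample, the log2 fold change went from 0.43 to 0.19 for Cldn5, from 0.18 to 0.07 for Tie1, from -0.17 to -0.06 for Kdr and from -0.23 to -0.11 for Flt1. Slc2a1 (0.26), Mfsd2a (0.27) and Cdh5 (-0.25) moved less. The difference in the barrier ratio went from 0.55 to 0.38, and the sexes still did not overlap. How far base composition accounts for the sex differences of the members was not tested.

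**Figure D4:**
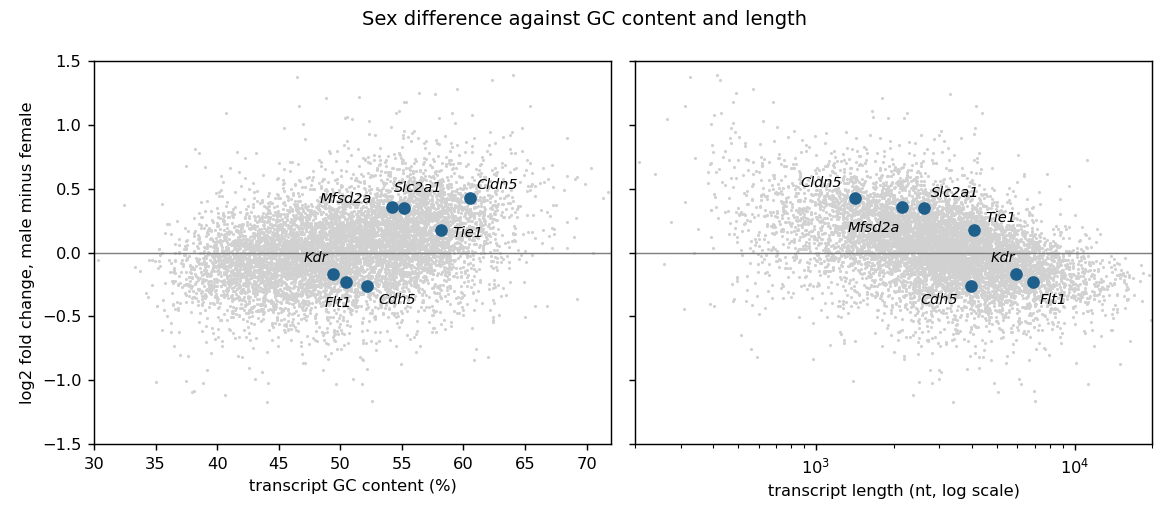
Log2 fold change (male minus female) against transcript GC content (left) and length (right, log scale) for tested IDs (grey, those averaging 50 or more counts) and the 7 genes (blue), with the vertical axis limited to the range shown. The 3 genes below 0 have the lowest GC contents of the 7, 49.4% to 52.2%.

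Across the 6 samples, Cdh5 varied with the VEGF receptors, and Tie1 with the barrier genes. Pearson's r of log2 CPM was 0.94 between Cdh5 and Kdr, 0.80 between Kdr and Flt1 and 0.63 between Cdh5 and Flt1. It was 0.94 between Tie1 and Mfsd2a and 0.91 between Tie1 and Cldn5 and between Cldn5 and Mfsd2a. For Slc2a1 it was lower, at 0.53 with Cldn5, 0.60 with Mfsd2a and 0.62 with Tie1. Between Cdh5, Kdr or Flt1 and each of the other 4 members it ran from -0.91 (Kdr and Cldn5) to -0.16 (Cdh5 and Slc2a1). The 6 points share the sexes, the depths and the base composition trends of their libraries, so these values are a description only.

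Wider lists were used to see whether other vascular genes followed the members. Of the further blood-brain barrier genes (transporters, junction proteins, transcription factors and Wnt co-receptors), 11 of 16 were tested and 0 called by edgeR (lowest adjusted p 0.379). At an unadjusted p under 0.05, 0 were higher and 1 lower in males (against 6.68% of all tested IDs higher and 4.82% lower), and the median log2 fold change was 0.04, against -0.01 over all tested IDs. The lower one was Reck, a co-receptor for the Wnt ligands that induce the barrier, with 153.9, 144.0 and 146.2 CPM in females and 122.7, 109.0 and 126.3 CPM in males (log2 fold change -0.31, standard error 0.12; edgeR adjusted p 0.379). Its partner Adgra2 had a log2 fold change of -0.02 and the amino acid transporter Slc7a5 one of 0.10, both named after their values were seen.

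Of the 22 further pan-endothelial genes, 14 were tested and 0 called by edgeR, and 1 was higher and 0 lower in males at an unadjusted p under 0.05, against 6.68% of all tested IDs higher and 4.82% lower. The median log2 fold change was 0.05. The higher one was Icam2, an endothelial adhesion molecule, with 16.7, 13 and 16.3 CPM in females and 29.2, 21.6 and 20.8 CPM in males (log2 fold change 0.63, standard error 0.20; edgeR adjusted p 0.341). Plvap, the diaphragm protein of fenestrated and immature vessels, was named after its values were seen. It had 38.9, 33.0 and 42.6 CPM in females and 42.9, 30.6 and 34.8 CPM in males, with overlapping sexes and a log2 fold change of -0.08 (standard error 0.17; edgeR adjusted p 0.885).

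Of 18 mural cell genes, which include pericyte and smooth muscle markers, 13 were tested and 0 called by edgeR, with 2 higher and 0 lower at an unadjusted p under 0.05 (against 6.68% of all tested IDs higher and 4.82% lower) and a median log2 fold change of 0.08. Ndufa4l2, a pericyte marker, had 25.9, 32.8 and 30.5 CPM in females and 46.5, 28.1 and 47.1 CPM in males (log2 fold change 0.46, standard error 0.20; edgeR adjusted p 0.421), and male sample 2 lay among the females. Rgs5 and Notch3, which mark pericytes and all mural cells, had log2 fold changes of 0.06 and 0.08. Anpep and Tbx18, on the same list, had -0.42 and -0.31 (edgeR adjusted p 0.436 and 0.451). All male samples of Tbx18 lay below all female samples. Rgs5, Notch3, Anpep and Tbx18 were named after their values were seen. Of the 13 mural IDs, 10 were above 0 and 3 below. Foxs1, the other ID higher at an unadjusted p under 0.05 (log2 fold change 0.76), averaged only 38.3 counts. Of 22 ligands and partners of the receptors, 17 IDs of 16 genes were tested and 0 called by edgeR, with 1 higher and 0 lower at an unadjusted p under 0.05 (against the same 6.68% and 4.82%) and a median of -0.02. Vegfc, a ligand of VEGFR3 and VEGFR2, had 14.6, 11 and 14.7 CPM in females and 20, 18.8 and 17.1 CPM in males (log2 fold change 0.46, standard error 0.20; edgeR adjusted p 0.404). Vegfa, the main ligand of Kdr and Flt1, and Angpt1, the ligand of Tek, matched no ID among those analysed here.

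**Figure D5:**
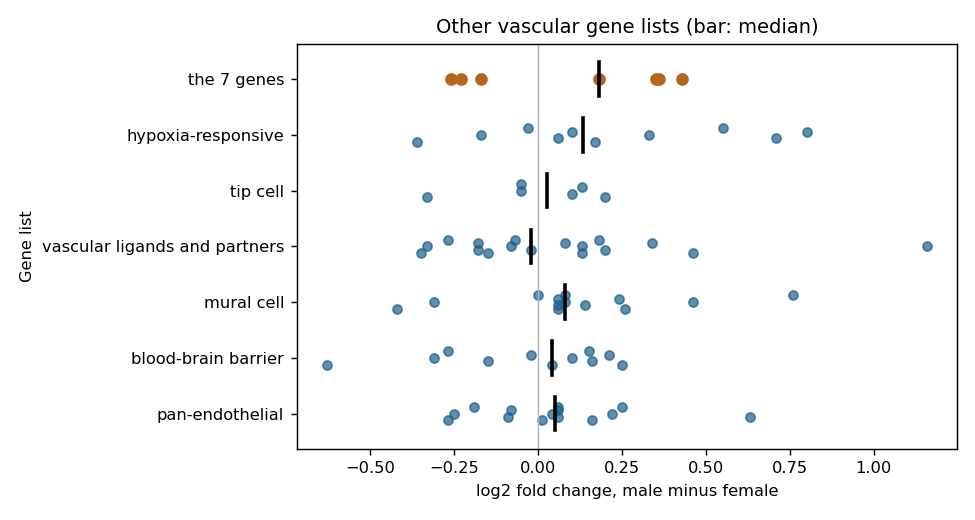
Log2 fold change (male minus female) of each tested ID in 6 wider gene lists (blue) and of the 7 genes (orange), with the median of each list as a bar. The medians of the 6 wider lists lie between -0.02 and 0.13, and that of the 7 genes at 0.18.

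Markers of other cell types in these libraries, some of which share a member, were read beside these results. Of 7 tested microglia and macrophage markers 0 were called by edgeR, against 0.0299% of all tested IDs. Their sum was 360.5 to 409.2 CPM in females and 368.9 to 419.7 CPM in males. Erythroid markers summed to 757.0 to 1018 CPM in females and 632.7 to 1172 CPM in males (0 of 6 called), and 5 megakaryocyte and platelet markers to 53.1 to 59.0 and 49.8 to 69.2 CPM (0 called). Lymphatic endothelial markers summed to 83.8 to 96.4 and 88.1 to 97.5 CPM (0 of 3 called). In the microglia, erythroid, platelet and lymphatic lists, 0 IDs had an unadjusted p under 0.05, against 6.68% of all tested IDs higher and 4.82% lower in males. Choroid plexus markers summed to 586.1 to 696.9 CPM in females and 720.8 to 886.6 CPM in males without overlap, although 0 of 4 were called. At an unadjusted p under 0.05, 1 of the 4 was higher and 0 lower in males. Ttr had a log2 fold change of 0.38, Aqp1 0.11, Clic6 0.10 and Kcnj13 -0.26, and without Ttr, an alternative added after the values were seen, the sums overlapped (154.0 to 188.0 and 154.9 to 191.6 CPM). Cartilage markers summed to 341.2 to 469.9 CPM in females and 144.3 to 303.1 CPM in males, also without overlap (0 of 5 IDs called). At an unadjusted p under 0.05, 0 of the 5 were higher and 3 lower in males, against 6.68% and 4.82% of all tested IDs. These were Matn1, Col9a1 and Hapln1, with log2 fold changes of -0.78, -0.91 and -1.09. Neuronal markers had 2295 to 2641 CPM in females and 2484 to 3265 CPM in males, and neural progenitor markers 3777 to 3962 and 3364 to 3776 CPM (0 called in either). The neuronal sums overlapped, and 2 of 5 tested IDs were above 0 and 3 below, with a median log2 fold change of -0.02 and 0.39 for Tubb3. Dcx, above 0, averaged 32 counts and Syt1, below 0, averaged 9.67, so these signs are uncertain. At an unadjusted p under 0.05, 1 neuronal ID was higher and 0 lower in males. The progenitor sums did not overlap, being lower in males, but did without Mki67 (2211 to 2479 and 2257 to 2479 CPM), also chosen after the values were seen. Of 5 progenitor IDs, 3 were above 0 and 2 below, with a median of 0.05. At an unadjusted p under 0.05, 2 were higher in males, Sox2 (0.39) and Hes5 (0.77), and 1 was lower, Mki67 (-0.42). Fibroblast markers overlapped, at 19643 to 23920 and 18003 to 26361 CPM (0 of 12 IDs called), as did those of muscle, at 6531 to 7097 and 5230 to 7339 CPM (0 of 8 IDs called). Of the fibroblast IDs, 5 were above 0 and 7 below (median -0.04), and of the muscle IDs 4 were above and 4 below (median -0.10). At an unadjusted p under 0.05, 0 were higher and 1 lower in each list, Ogn (log2 fold change -0.31) and Myh3 (-0.28). None of the genes named from these lists of other cell types passed the edgeR test (adjusted p 0.338 to 0.859). The part of these tissues in the values of the members was not tested.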

How the data were processed

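Whole-brain RNA of 3 female and 3 male E15.5 samples was measured by stranded total RNA-seq. According to the study's methods, the authors trimmed reads with Trimmomatic 0.32, aligned them to mm9 with TopHat 2.1.1, assembled and merged transcripts with Cufflinks 2.2.1 and counted with featureCounts 1.5.1. The values the authors deposited are raw counts per RefSeq transcript ID. The treatment of shared reads, multi-mapped reads and strand is not stated. IDs of genes with 2 or more IDs had a median of 18 counts over the 6 samples, against 94 for genes with 1 ID, so counts of genes with several transcripts are uncertain. Each measured member had 1 ID.

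Symbols came from a RefSeq gene table (99.46% of IDs), and positions, lengths and GC contents from GENCODE on NCBIM37, the assembly of mm9 (91.62%). Male and female samples were compared with edgeR 4.0.16 (quasi-likelihood F test, TMM, R 4.3.3) over all 13374 IDs that reached 10 counts in any sample, with Benjamini-Hochberg adjustment and an adjusted p under 0.05 as the threshold. Each standard error was the fold change divided by the square root of F, and intervals used the fit's degrees of freedom. The study itself used DESeq2 with RUVr factors. Here DESeq2 1.42.0, RUVr factors, other scalings and filters, a replicate block, fits without each sample, IDs summed per gene and correction for length and GC trends were alternatives. The fit was tested on simulated data with larger changes than those of the members and less spread between samples. That test says nothing on changes as small as theirs. All pairs of samples within a sex differed by more than sampling noise (chi-square per degree of freedom 9.03 to 44.9), so none was a copy. The floor of 3 counts covers counting error only.

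The members and lists were chosen with earlier results of these data known. All 10 members were to be named, and of each other list at most 4 genes with an unadjusted p under 0.05 and a mean of at least 50 counts, taken by smallest p, and the 5 IDs most like the members' mean profile. Upstream sequences are RefSeq's on GRCm38.p6, with 6 of 7 measured members in the table.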

Additional observations from a re-analysis of the deposited data

How the results depend on the processing

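The count of members called was 0 in the edgeR fit and in all 16 alternatives, with adjusted p-values of 0.0863 (Cldn5, 2 RUVr factors) to 0.905 (Tie1, without female sample 2). No member changed sign. The number of members at an unadjusted p under 0.05 was 2 of 7 in the edgeR fit, where 11.5% of all IDs passed. It was 4 with 1 or 2 RUVr factors (17.8% and 21.5% of all IDs), 3 with DESeq2 (10.7%) and with 10 or more counts in every sample (14%), 1 with length and GC trends removed (Cdh5; 9.79%), 0 without female sample 2 (5.61%), 1 without female sample 1 (5.73%) or male sample 2 (8.94%), and 2 without female sample 3 (16.1%), male sample 1 (9.49%) or male sample 3 (14.4%). The median log2 fold change of the members, 0.18, was 0.07 with length and GC trends removed and ran from 0.08 (without female sample 2) to 0.30 (without female sample 3) when 1 sample was left out. The barrier ratio differed by 0.38 on the log2 scale with length and GC trends removed, an alternative added after the data were seen, against 0.55. Why these values moved was not tested. Calls over all IDs, higher and lower in males, were 3 and 1 with edgeR, 72 and 35 with DESeq2, 191 and 85 with no filter, 1 and 0 with the filter in every sample, 13 and 23 with 1 RUVr factor, 315 and 168 with 2, 48 and 3 without female sample 3, 8 and 4, 7 and 1 and 5 and 2 without male samples 1, 2 and 3, and 3 and 1 in the others. Replicate numbers did not pair the samples: deviations of same-numbered samples correlated at -0.287, -0.064 and -0.203. With the replicate block the median was 0.19 and 0 members were called.

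With 3 pools a sex, the 95% intervals of 5 members included 0, as from -0.42 to 0.08 for Kdr and from -0.02 to 0.73 for Mfsd2a. Those of Cldn5 (0.07 to 0.79) and Slc2a1 (0.03 to 0.68) did not, before adjustment over all tested IDs.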

Other observations

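Genes that respond to low oxygen, of which Slc2a1 is a known example, were read as a further list. Of 10 tested IDs, 0 were called by edgeR, and 2 were higher and 0 lower in males at an unadjusted p under 0.05 (against 6.68% of all tested IDs higher and 4.82% lower), with a median log2 fold change of 0.13 against -0.01 over all tested IDs. Of the 10, 7 were above 0 and 3 below, and the summed CPM did not overlap between the sexes (201.7 to 248.0 in females and 265.3 to 322.5 in males), but did without the 2 that were higher. The 3 below 0, Adm, Car9 and Ldha, averaged 35.8, 19.8 and 6.67 counts, and Pdk1, above 0, averaged 14. These signs are uncertain at such counts. Pgk1, a glycolytic enzyme, had 22.4, 16.4 and 30.4 CPM in females and 39.0, 42.8 and 40.1 CPM in males, and its log2 fold change was 0.80 (standard error 0.20; edgeR adjusted p 0.338). The other was Ddit4, a stress-induced inhibitor of mTOR, with 43.1, 35.4 and 56.7 CPM in females and 92.6, 62.2 and 68.1 CPM in males. Adm and Bnip3, named after their values were seen, had log2 fold changes of -0.03 and 0.06. Of the tip cell genes, which mark the leading cells of sprouts, 6 of 9 were tested and 0 called, against 0.0299% of all tested IDs. At an unadjusted p under 0.05 there were 0 in either direction, against 6.68% of all tested IDs higher and 4.82% lower. With 6 IDs these counts say little. The median was 0.03, with 3 IDs above 0 and 3 below. Angpt2, named after its values were seen, had 34.2, 29.4 and 25.4 CPM in females and 19.0, 21.3 and 30.3 CPM in males, with male sample 3 above female samples 2 and 3. Its log2 fold change was -0.33, while those of Dll4, Pdgfb and Apln were 0.20, 0.13 and 0.10.

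The IDs whose log2 CPM over the 6 samples was most like the mean of the 7 members were those of Clstn3, Polh, Mcrip2, Map2k1 and Abcb10, with Pearson's r of 0.991 to 0.994 among 8351 candidates. The members' mean profile was lowest in female sample 2 (-0.17 on the log2 scale from its mean) and highest in male sample 1 (0.13), and 1% of the candidates had an r above 0.963.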
